A study of Mus musculus with 24 samples.

Results

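Endothelium and stroma taken from the marrow of C57BL/6J mice without culture were compared here, as 3 RNA libraries of endothelium (BMEC-In vivo) and 3 of stroma (BMS-In vivo), 6 of the 24 libraries in the series. Membership followed the library titles alone, and every gene listed in the files was considered. The labels give polyA RNA, extraction with Trizol, TruSeq libraries and paired-end reads of 51 bases for both groups. Age, sex, the way cells were isolated and any sorting gate are not stated in the labels. The titles of the in vivo libraries lack the name Akt1, which all 18 titles of cultured libraries carry. Column headers of the endothelial files carry the word Young, and those of the stromal files do not. Nothing in the labels ties the 3 libraries of a group to separate animals. The p-values thus measure the spread between libraries, which may be technical and which the test shares in part between genes of like level. The values are FPKM (sequenced fragments scaled to transcript length and to the depth of the library), as deposited by the authors.

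Marrow is drained by sinusoids, wide vessels lined by a thin, fenestrated endothelium that takes up lipids and waste and through which blood cells leave, and it is fed by arterioles with tighter walls. Around the vessels lie stromal cells that express the leptin receptor and secrete the chemokine Cxcl12 and the growth factor Kitl, which hold and maintain blood stem cells. Other stromal cells form bone (osteoblasts, osteocytes) or cartilage (chondrocytes).

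The libraries of each group resembled each other closely. Pearson's r between log2(FPKM + 1) values was taken over all 23879 listed genes, of which 9128 to 10080 per library were at 0. It was 0.9948 to 0.9961 within endothelium and 0.9951 to 0.9957 within stroma. Between an endothelial and a stromal library it was 0.8629 to 0.8666. These values are a description over genes, which are not independent. Library sums were 1527641 to 1707100 FPKM in endothelium and 1677664 to 1797252 FPKM in stroma. At least 1 FPKM was reached by 13156 to 13235 genes per endothelial library and 13845 to 13961 genes per stromal library.

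Defining markers matched both labels. The cadherin of endothelial junctions, Cdh5, stood at 3271, 3031 and 3475 FPKM in endothelium, against 0.61, 0.43 and 1.69 FPKM in stroma. Pecam1, an adhesion molecule of the same junctions, stood at 2297, 2177 and 2415 FPKM in endothelium, against 1.13, 1.05 and 2.37 FPKM in stroma. The 2 groups were far apart for both genes, and no stromal library reached 3 FPKM. The leptin receptor Lepr stood at 47.7, 49.6 and 69.6 FPKM in endothelium, against 2789, 2470.0 and 2499 FPKM in stroma, and the groups did not overlap. The osteoblast transcription factor Sp7 stood at 0, 0.75 and 1.49 FPKM in endothelium, against 322, 394 and 375 FPKM in stroma, again with no overlap.

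**Figure D1:**
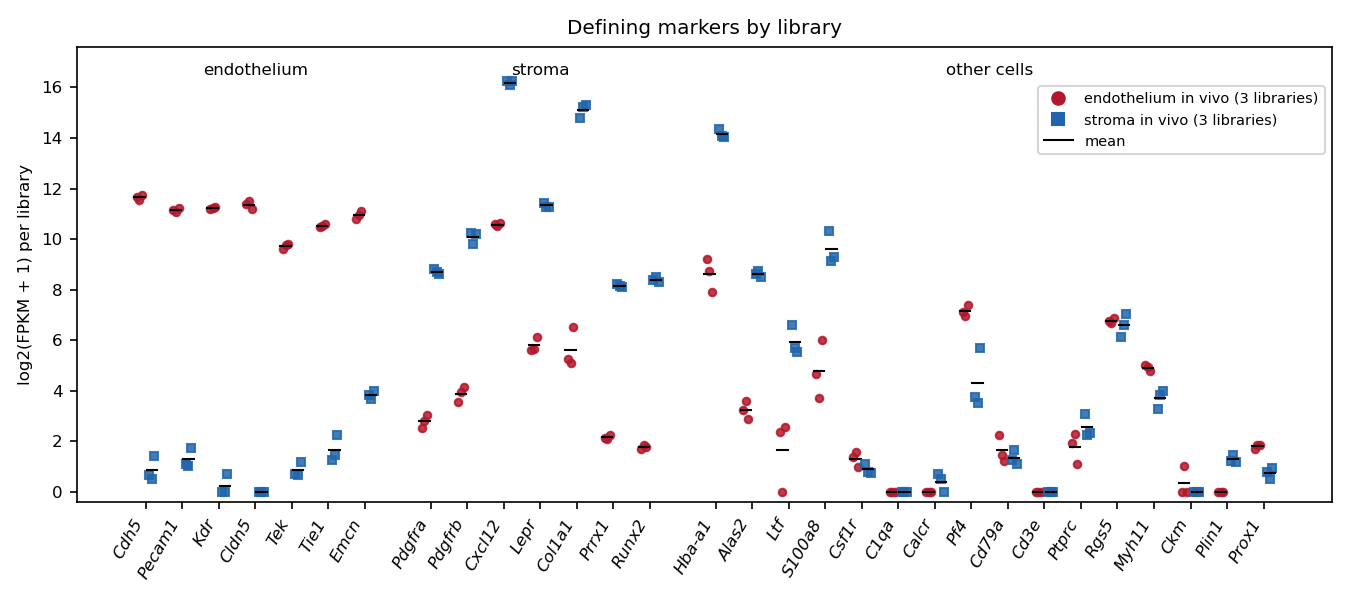
log2(FPKM + 1) (vertical axis) of defining markers of endothelium, stroma and other cells (horizontal axis), with 3 endothelial libraries (red circles) left of 3 stromal libraries (blue squares) for each gene and a bar at the mean. The 7 endothelial markers are high in every endothelial library and the stromal markers higher in every stromal library, while Hba-a1 and S100a8 are higher in stroma and C1qa and Cd3e lie at 0.

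Of 23879 listed genes, 14332 had at least 1 FPKM in at least 3 of the 6 libraries and were tested with limma on log2(FPKM + 1). A gene was called higher or lower in endothelium where its change exceeded 2-fold at an adjusted p under 0.05 (limma's treat, Benjamini-Hochberg over all tested genes). By this rule 1732 genes were higher in endothelium (12.1% of those tested) and 2334 were lower (16.3%), 28.4% in all. Counts of members of a gene list are to be read against these shares. Where adding the 6 libraries titled BMEC-Akt1 and BMS-Akt1 with no further setting (called the first cultures here), or fitting all 24 libraries, moved such a count by over 1.5 times, the count is given for those fits too. The median difference over all tested genes was 0.05 on the log2 scale. Without the 2-fold minimum, 39.2% of tested genes were higher and 35.1% lower. In bulk RNA a lower level can come from fewer cells of a type or from less RNA per cell, and these cannot be told apart here. Differences are given as endothelium minus stroma on the log2(FPKM + 1) scale ± SE, which understates the change of low genes, and levels as mean ± SD of 3 libraries. Where a gene was listed at 0 in all libraries of a group, its levels are given without a fold.

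**Figure D2:**
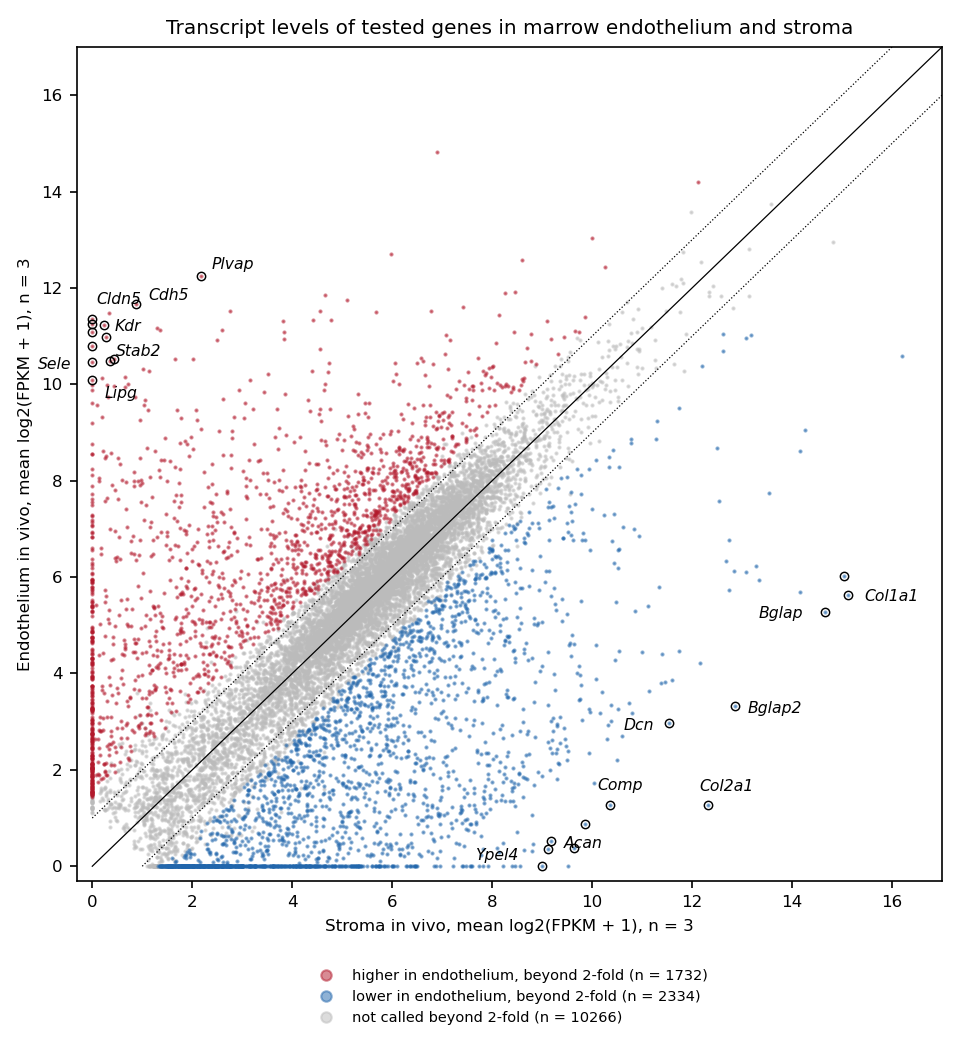
Mean log2(FPKM + 1) of 3 endothelial libraries (vertical axis) against that of 3 stromal libraries (horizontal axis), 1 point per tested gene, with the 1732 genes called higher and the 2334 called lower in endothelium coloured. Circles mark the 12 most extreme genes on each side, the solid line equal levels and the dotted lines 2-fold, and many called genes lie at 0 in the other cell type.

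Stromal libraries also held more transcripts of red cells and granulocytes. Of 15 tested erythroid genes 14 were lower in endothelium, where 16.3% of all tested genes were lower, and their summed level was 1222 to 1939 FPKM in endothelium and 39329.5 to 46916 FPKM in stroma. Of 14 tested neutrophil genes 9 were lower in endothelium, with sums of 264 to 346 FPKM in endothelium and 1775 to 3907 FPKM in stroma. Called higher were 0, but 1 with the first cultures in the fit and 2 with all 24 libraries. Without the 2-fold minimum 3 were higher, so not every granulocyte gene was on the stromal side. The granule gene Elane stood at 50.8, 106 and 41.97 FPKM in endothelium, against 20.99, 7.15 and 16.8 FPKM in stroma and was not called. Of 12 tested megakaryocyte and platelet genes 2 were higher, where 12.1% of all tested genes were. This count was 0 or 1 when any library but stromal replicate 3 was left out, and 6 without that one or with the replicate block. Their sums were 229 to 633 FPKM in endothelium and 43.5 to 264 FPKM in stroma. The beta globin Hbb-b1 stood at 649, 588 and 390.3 FPKM in endothelium, against 22491, 18168 and 18429 FPKM in stroma. The granule protein S100a8 stood at 24.2, 12.3 and 63.7 FPKM in endothelium, against 1279, 568 and 633 FPKM in stroma. Macrophage complement genes C1qa, C1qb and C1qc were listed at 0 in all 6 libraries, as were the T cell receptor chains Cd3e, Cd3d and Cd3g and the B cell genes Ms4a1 and Pax5. The part of blood cells in the results below was not tested.

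The genes with the most extreme differences on the endothelial side had several known roles. The tight junction protein Cldn5 stood at 2697, 2886 and 2344 FPKM in endothelium and was listed at 0 in all 3 stromal libraries. Gpihbp1, which anchors lipoprotein lipase to the capillary wall, stood at 2682, 2245 and 2449 FPKM in endothelium and was listed at 0 in all 3 stromal libraries. The VEGF receptor Kdr stood at 2356, 2409.9 and 2489 FPKM in endothelium, against 0, 0 and 0.62 FPKM in stroma, a difference of 11.01 ± 0.18 (adjusted p = 1.74e-08, limma). For these 3 genes each endothelial library exceeded 1000 FPKM while each stromal library was below 1 FPKM. The scavenger receptor Stab2, which clears hyaluronan in sinusoids, stood at 1973, 1865 and 2213 FPKM in endothelium, against 0.28, 0 and 0.36 FPKM in stroma (10.71 ± 0.13, adjusted p = 6.35e-09, limma). The guidance receptor Robo4 stood at 1417, 1364 and 1485 FPKM in endothelium and was listed at 0 in all 3 stromal libraries. Both genes were at or near 0 in all stromal libraries. The transcription factor Sox18 stood at 1287, 1442 and 1609.8 FPKM in endothelium, against 0, 1.09 and 0 FPKM in stroma, a difference of 10.14 ± 0.28. The matrix protein Mmrn2 stood at 1374, 1396 and 1657 FPKM in endothelium, against 0, 0.38 and 0.79 FPKM in stroma. Plvap, the protein of fenestral diaphragms, stood at 4281, 4776 and 5732 FPKM in endothelium, against 2.8, 4.03 and 3.88 FPKM in stroma, and its lowest endothelial value was far above its highest stromal one.

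Less even among the endothelial libraries were 3 other genes of this group. Sele, the E-selectin that captures rolling leukocytes, stood at 1218, 1344 and 3439 FPKM in endothelium and was listed at 0 in all 3 stromal libraries. The endothelial lipase Lipg stood at 894, 850.3 and 1729 FPKM in endothelium and was listed at 0 in all 3 stromal libraries. Ubd, a ubiquitin-like modifier, stood at 1669.7, 1829 and 3354 FPKM in endothelium and was listed at 0 in all 3 stromal libraries. Replicate 3 was the highest for all 3 genes. Their calls held when it was left out.

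On the stromal side the extremes were matrix genes of cartilage and bone. The cartilage collagen Col2a1 stood at 0, 3.62 and 1.99 FPKM in endothelium, against 4579, 3809 and 7569 FPKM in stroma, a difference of -11.05 ± 0.54 (adjusted p = 2.13e-06, limma). Lect1, a chondrocyte glycoprotein that inhibits vessel growth, stood at 0, 1.24 and 0 FPKM in endothelium, against 764, 553 and 1189.9 FPKM in stroma. Stromal replicate 3 was the highest for Col2a1. The bone collagen chain Col1a1 stood at 36.98, 33.1 and 92.3 FPKM in endothelium, against 28022, 38741 and 41002 FPKM in stroma (-9.48 ± 0.38, adjusted p = 7.44e-07, limma). Osteocalcin, encoded by Bglap, stood at 58.1, 14.3 and 63.3 FPKM in endothelium, against 19575, 30911 and 28652 FPKM in stroma, a difference of -9.38 ± 0.53. Each stromal library was far above each endothelial one for both genes. Bglap and its near copy Bglap2 share sequence, so the split of reads between them is uncertain. The proteoglycan Acan of cartilage stood at 0, 1.91 and 0 FPKM in endothelium, against 576, 408 and 821 FPKM in stroma. The small proteoglycan Dcn, which binds collagen fibrils, stood at 5.23, 5.09 and 11.6 FPKM in endothelium, against 2518, 3207 and 3288 FPKM in stroma. Ypel4 was listed at 0 in all 3 endothelial libraries and stood at 409, 669 and 481 FPKM in stroma. None of these 3 genes reached 20 FPKM in an endothelial library. The other genes of the 12 most extreme on this side were Bglap2, Comp, Col1a2, Col11a1 and Col9a2, of which Comp binds collagen in cartilage.

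The promoters of 3 of the endothelial genes and of Bglap show the motif that was more frequent among the endothelial genes' promoters and the pair of motifs matched in an osteoblast promoter. These 4 were chosen after their matches were seen. Sequences are from RefSeq on GRCm38.p6, 250 bases before to 50 after the annotated start, 5′ to 3′ on the gene's strand, and the capitals mark matches to the motifs searched. The places are chr1:164047984-164048283 on the plus strand for Sele, chr10:87007893-87008192 on the minus strand for Stab2, chr9:37401722-37402021 on the plus strand for Robo4 and chr3:88384417-88384716 on the minus strand for Bglap.
Sele: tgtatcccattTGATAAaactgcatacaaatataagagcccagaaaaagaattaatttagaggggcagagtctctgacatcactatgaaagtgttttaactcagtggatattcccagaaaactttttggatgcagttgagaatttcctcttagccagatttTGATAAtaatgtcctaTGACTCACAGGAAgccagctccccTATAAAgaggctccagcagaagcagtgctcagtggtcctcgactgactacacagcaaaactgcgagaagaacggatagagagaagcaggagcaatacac
Stab2: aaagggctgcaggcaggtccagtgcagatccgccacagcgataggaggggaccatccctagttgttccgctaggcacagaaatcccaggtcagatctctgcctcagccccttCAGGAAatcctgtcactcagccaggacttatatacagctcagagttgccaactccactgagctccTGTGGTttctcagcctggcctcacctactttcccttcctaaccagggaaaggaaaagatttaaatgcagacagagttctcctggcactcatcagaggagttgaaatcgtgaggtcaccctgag
Robo4: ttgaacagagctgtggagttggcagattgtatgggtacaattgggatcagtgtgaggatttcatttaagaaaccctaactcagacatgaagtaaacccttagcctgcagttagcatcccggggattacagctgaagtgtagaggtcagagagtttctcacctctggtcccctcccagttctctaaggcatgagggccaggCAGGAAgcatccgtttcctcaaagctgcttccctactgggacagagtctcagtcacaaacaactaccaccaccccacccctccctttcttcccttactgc
Bglap: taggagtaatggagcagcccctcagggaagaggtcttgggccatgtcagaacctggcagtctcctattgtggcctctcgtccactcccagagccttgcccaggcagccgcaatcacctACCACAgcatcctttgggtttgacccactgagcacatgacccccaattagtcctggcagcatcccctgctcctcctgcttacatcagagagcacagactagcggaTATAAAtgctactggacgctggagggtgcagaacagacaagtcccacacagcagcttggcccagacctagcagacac
In all, 7 motifs were searched on both strands. These were CAGGAA and CCGGAA, read by ETS factors, TGTGGT, read by RUNX factors, ACAAAG, read by SOX factors, TGATAA, read by factors such as Gata2, TGANTCA, read by Fos and Jun, and the start-site element TATAAA. The matches of Sele to TGANTCA and CAGGAA lie side by side. CAGGAA was found in the promoters of Sele, Stab2 and Robo4, and Bglap held TATAAA and, on the opposite strand, TGTGGT, which reads ACCACA. A match is a description of the letters in this window and not a bound site.

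Of the 14332 tested genes, 11308 had a promoter in the RefSeq table. The sets below are the 100 called genes with the largest difference in each direction among those with a full-length promoter and a mean of at least 20 FPKM in the higher group. Extreme genes without such a promoter, among them Gpihbp1, Cdh5, Col2a1 and Col1a1, are thus left out. In the set with positive differences 49% held CAGGAA, against 26% of the set with negative differences and 30.4% of all 27025 promoters of full length. CCGGAA was found in 8%, 6% and 15.2% of those 3 sets, taken in that order. TGATAA was found in 10% of promoters of the endothelial genes, 2% of the stromal genes and 9.26% of all. TGTGGT stood in 10% of promoters of the endothelial genes, 19% of the stromal genes and 16.9% of all. The GC content of the windows was 56.1% for the endothelial genes, 55.7% for the stromal genes and 53.6% for all. These shares were not tested.

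The highest levels in the 2 groups of libraries belonged mostly to different products. The 10 genes with the highest values made up 7.21% to 7.62% of an endothelial library and 15.3% to 17% of a stromal one, and 2 genes, B2m and Sparc, were among the 10 of both. The 10 of stroma included the red cell globins Hbb-b1 and Hba-a1, at 19700 ± 2424 and 18340 ± 2136 FPKM, so the stromal share is not of stromal transcripts alone. The fatty acid carrier Fabp4 led in endothelium, and it stood at 29122, 25970.4 and 31699 FPKM in endothelium, against 97.4, 118 and 144 FPKM in stroma, a difference of 7.92 ± 0.18 (adjusted p = 5.40e-08, limma). Sepp1, a selenium carrier, averaged 18780 ± 2371 FPKM in endothelium and 4448 ± 207 FPKM in stroma. Tfpi, the inhibitor of tissue factor, averaged 6716 ± 1048 FPKM in endothelium and 62.6 ± 10.5 FPKM in stroma. The water channel Aqp1 averaged 6203 ± 970.4 FPKM in endothelium and 387 ± 46.6 FPKM in stroma. Stroma was led by Cxcl12, which stood at 1537, 1455 and 1595 FPKM in endothelium, against 78599, 69149.9 and 77753 FPKM in stroma, a difference of -5.62 ± 0.31 (adjusted p = 6.99e-06, limma). Endothelium thus held Cxcl12 at over 1000 FPKM in each library while standing far below stroma. The acid phosphoprotein Spp1 of bone averaged 55.4 ± 26.8 FPKM in endothelium and 18540 ± 2996 FPKM in stroma. The calcification inhibitor Mgp averaged 229 ± 95.6 FPKM in endothelium and 12400 ± 3829 FPKM in stroma.

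Every endothelial identity gene was called. All 27 tested genes of the endothelial identity list were higher in endothelium, with a median difference of 8.78, where 12.1% of all tested genes were higher. Their levels in endothelium ran over a wide range, with the clotting carrier Vwf at the low end. Vwf stood at 59.4, 44.3 and 51.98 FPKM in endothelium, against 4.47, 5.36 and 7.31 FPKM in stroma. Plvap averaged 4930 FPKM in endothelium. Endoglin, a TGF-beta co-receptor encoded by Eng, stood at 2776, 2804 and 3230.0 FPKM in endothelium, against 113, 100.1 and 114 FPKM in stroma, so its stromal level was not near 0.

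All 11 tested sinusoidal genes were higher in endothelium (median 8.52). The scavenger receptor Stab1 averaged 1480 ± 149 FPKM in endothelium and 3.15 ± 1.21 FPKM in stroma. Mrc1, the mannose receptor, averaged 1286 ± 165 FPKM in endothelium and 1.03 ± 0.234 FPKM in stroma. Fcgr2b, a receptor for immune complexes, averaged 711 ± 129.6 FPKM in endothelium and 2.26 ± 0.474 FPKM in stroma. The secreted nuclease Dnase1l3 averaged 954 ± 118 FPKM in endothelium and was listed at 0 in stroma. Lyve1, a hyaluronan receptor of liver sinusoids and lymphatics, was not tested, and its highest value was below 1 FPKM in either group. The lymphatic regulator Prox1 was tested and not called, at 2.24, 2.67 and 2.66 FPKM in endothelium, against 0.74, 0.42 and 0.93 FPKM in stroma.

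Arterial and venous genes were both present. Of 19 tested arterial genes 12 were higher and the others were not called (median 4.09). The Notch ligand Dll4 stood at 375, 418 and 337 FPKM in endothelium and was listed at 0 in all 3 stromal libraries. The transcription factor Sox17 stood at 205, 183 and 179 FPKM in endothelium, against 0, 0 and 0.67 FPKM in stroma. The arterial connexin Gja5 stood at 50.6, 44.1 and 43.1 FPKM in endothelium, against 0.65, 0.54 and 0.65 FPKM in stroma. All 3 genes were below 2 FPKM in every stromal library. Hey1, a Notch target, averaged 98.2 ± 35.6 FPKM in endothelium and 36.1 ± 3.73 FPKM in stroma, Bmx, a tyrosine kinase, averaged 9.57 ± 1.42 FPKM in endothelium and 11.3 ± 1.28 FPKM in stroma, and the chemokine receptor Cxcr4 averaged 48.8 ± 10.7 FPKM in endothelium and 31.2 ± 3.22 FPKM in stroma, none of them called. Of 8 tested venous genes 7 were higher, among them the venous regulator Nr2f2, which averaged 302 ± 45.7 FPKM in endothelium and 13.1 ± 0.957 FPKM in stroma, and the ephrin receptor Ephb4, which averaged 469.6 ± 14.02 FPKM in endothelium and 53.4 ± 5.32 FPKM in stroma. The chemokine-binding receptor Darc of venules averaged 2612 ± 542 FPKM in endothelium and 20.3 ± 2.48 FPKM in stroma.

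Of 23 tested transcription factors of endothelium 16 were higher and 1 lower (median 3.21). The ETS factors Erg, Fli1, Ets1, Ets2 and Elk3 were all higher. Erg stood at 319, 339 and 376 FPKM in endothelium, against 2.53, 1.13 and 1.33 FPKM in stroma, a difference of 7.05 ± 0.19. Ets1 averaged 1284 ± 148 FPKM in endothelium and 138 ± 7.36 FPKM in stroma. The SOX factor Sox7 averaged 158 ± 33.3 FPKM in endothelium and was listed at 0 in stroma. Gata2, a factor shared with blood progenitors, averaged 211 ± 14.3 FPKM in endothelium and 4.58 ± 0.2899 FPKM in stroma. Hhex averaged 133 ± 30.3 FPKM in endothelium and 1.22 ± 0.162 FPKM in stroma. Heyl, a Notch target of mural cells, was the gene called lower, and averaged 4.16 ± 1.17 FPKM in endothelium and 244 ± 81.4 FPKM in stroma. Klf2, induced by flow, averaged 1543 ± 389.7 FPKM in endothelium and 747 ± 201 FPKM in stroma, a difference of 1.05 ± 0.25 that was not called beyond 2-fold. Foxf1, Lmo2, Tal1, Lyl1 and Prox1 were not called either.

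Junction and caveola genes followed the same direction. Of 14 tested junction genes 10 were higher and the others were not called (median 3.54), with the adhesion protein F11r at 765 ± 22.4 FPKM in endothelium and 1.103 ± 0.673 FPKM in stroma. Tjp1, a scaffold under tight junctions, averaged 502 ± 15.02 FPKM in endothelium and 61.4 ± 3.85 FPKM in stroma. Beta-catenin, encoded by Ctnnb1, averaged 1887 ± 87.9 FPKM in endothelium and 1119 ± 146 FPKM in stroma and was not called. Of 9 tested genes of caveolae and fenestrae 8 were higher. The caveolar coat protein Cav1 stood at 3404, 2394 and 2072 FPKM in endothelium, against 30.3, 21.2 and 29.2 FPKM in stroma, a difference of 6.54 ± 0.21 (adjusted p = 2.69e-07, limma). Its endothelial values were all above 2000 FPKM and its stromal values all below 50 FPKM.

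Leukocyte adhesion genes split by molecule. Of 11 tested genes 7 were higher and 1 lower in endothelium. The selectin Selp stood at 600.0, 678 and 850.2 FPKM in endothelium, against 0.73, 0.74 and 2.4 FPKM in stroma. Podxl, a sialomucin, averaged 992 ± 65.6 FPKM in endothelium and 0.597 ± 0.2801 FPKM in stroma. The addressin Madcam1 averaged 14.2 ± 1.59 FPKM in endothelium and was listed at 0 in stroma. Podxl2, a related sialomucin, was lower and averaged 5.07 ± 0.446 FPKM in endothelium and 63.4 ± 1.12 FPKM in stroma. The integrin ligand Vcam1 stood at 4106, 3442 and 4783 FPKM in endothelium, against 3229, 2304 and 2588 FPKM in stroma, a difference of 0.60 ± 0.21 that was not called, so that both cell types held it at over 2000 FPKM on average.

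The genes of clotting control included calls on both sides. Of 15 tested genes 10 were higher and 3 lower (median 2.99). Higher were thrombomodulin, encoded by Thbd, which averaged 2795 ± 401 FPKM in endothelium and 284 ± 56.6 FPKM in stroma, and coagulation factor F8, which stood at 451, 459 and 533 FPKM in endothelium, against 2.92, 2.72 and 3.23 FPKM in stroma. Plau and Plat, the plasminogen activators, were also higher, and Plau averaged 213 ± 19.9 FPKM in endothelium and 5.46 ± 0.541 FPKM in stroma. Among those lower were tissue factor F3, which was listed at 0 in all 3 endothelial libraries and stood at 18.7, 27.7 and 30.99 FPKM in stroma, and the protease inhibitor Serpine2, which averaged 78.8 ± 37.04 FPKM in endothelium and 9895 ± 601 FPKM in stroma.

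Vasoactive genes were called on both sides. Of 20 tested genes 11 were higher and 6 lower. The nitric oxide synthase Nos3 stood at 287, 259.7 and 256 FPKM in endothelium, against 0, 0 and 0.31 FPKM in stroma. Endothelin, encoded by Edn1, averaged 43.6 ± 0.416 FPKM in endothelium and 0.223 ± 0.387 FPKM in stroma. The endothelin receptor Ednrb was higher and averaged 163 ± 20.7 FPKM in endothelium and 5.19 ± 1.94 FPKM in stroma. The other endothelin receptor, Ednra, was lower and averaged 3.89 ± 0.369 FPKM in endothelium and 138 ± 23.01 FPKM in stroma. Prostacyclin synthase, encoded by Ptgis, was lower and stood at 1.12, 1.06 and 2.92 FPKM in endothelium, against 226, 338 and 317 FPKM in stroma. The subunit Gucy1a3 of the nitric oxide receptor was also lower and averaged 8.997 ± 0.123 FPKM in endothelium and 45.3 ± 8.28 FPKM in stroma.

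Of 14 tested genes of fatty acid handling 10 were higher and the others were not called (median 3.01). The count called higher was 5 with the first cultures in the fit and 8 with all 24 libraries. The uptake receptor Cd36 stood at 3588, 2830.3 and 2999 FPKM in endothelium, against 142, 207 and 164 FPKM in stroma, with no overlap. The nuclear receptor Pparg, which drives lipid storage genes, stood at 750.0, 777 and 763 FPKM in endothelium, against 106, 86.6 and 102 FPKM in stroma, a difference of 2.95 ± 0.09 (adjusted p = 6.32e-07, limma), a call lost with the first cultures in the fit. The retinoid-binding protein Rbp7 averaged 213 ± 44.8 FPKM in endothelium and was listed at 0 in stroma. Lipoprotein lipase itself, encoded by Lpl, averaged 358 ± 53.1 FPKM in endothelium and 708 ± 51.7 FPKM in stroma and was not called. Angptl4, an inhibitor of that lipase, averaged 2141 ± 459 FPKM in endothelium and 446 ± 91.3 FPKM in stroma. The adipocyte storage genes Cidec, Cidea, Lep and Retn were listed at 0 in all 6 libraries, and the adipokine Adipoq was lower and stood at 13.4, 18.3 and 33.7 FPKM in endothelium, against 2897, 2489.9 and 2706 FPKM in stroma.

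**Figure D3:**
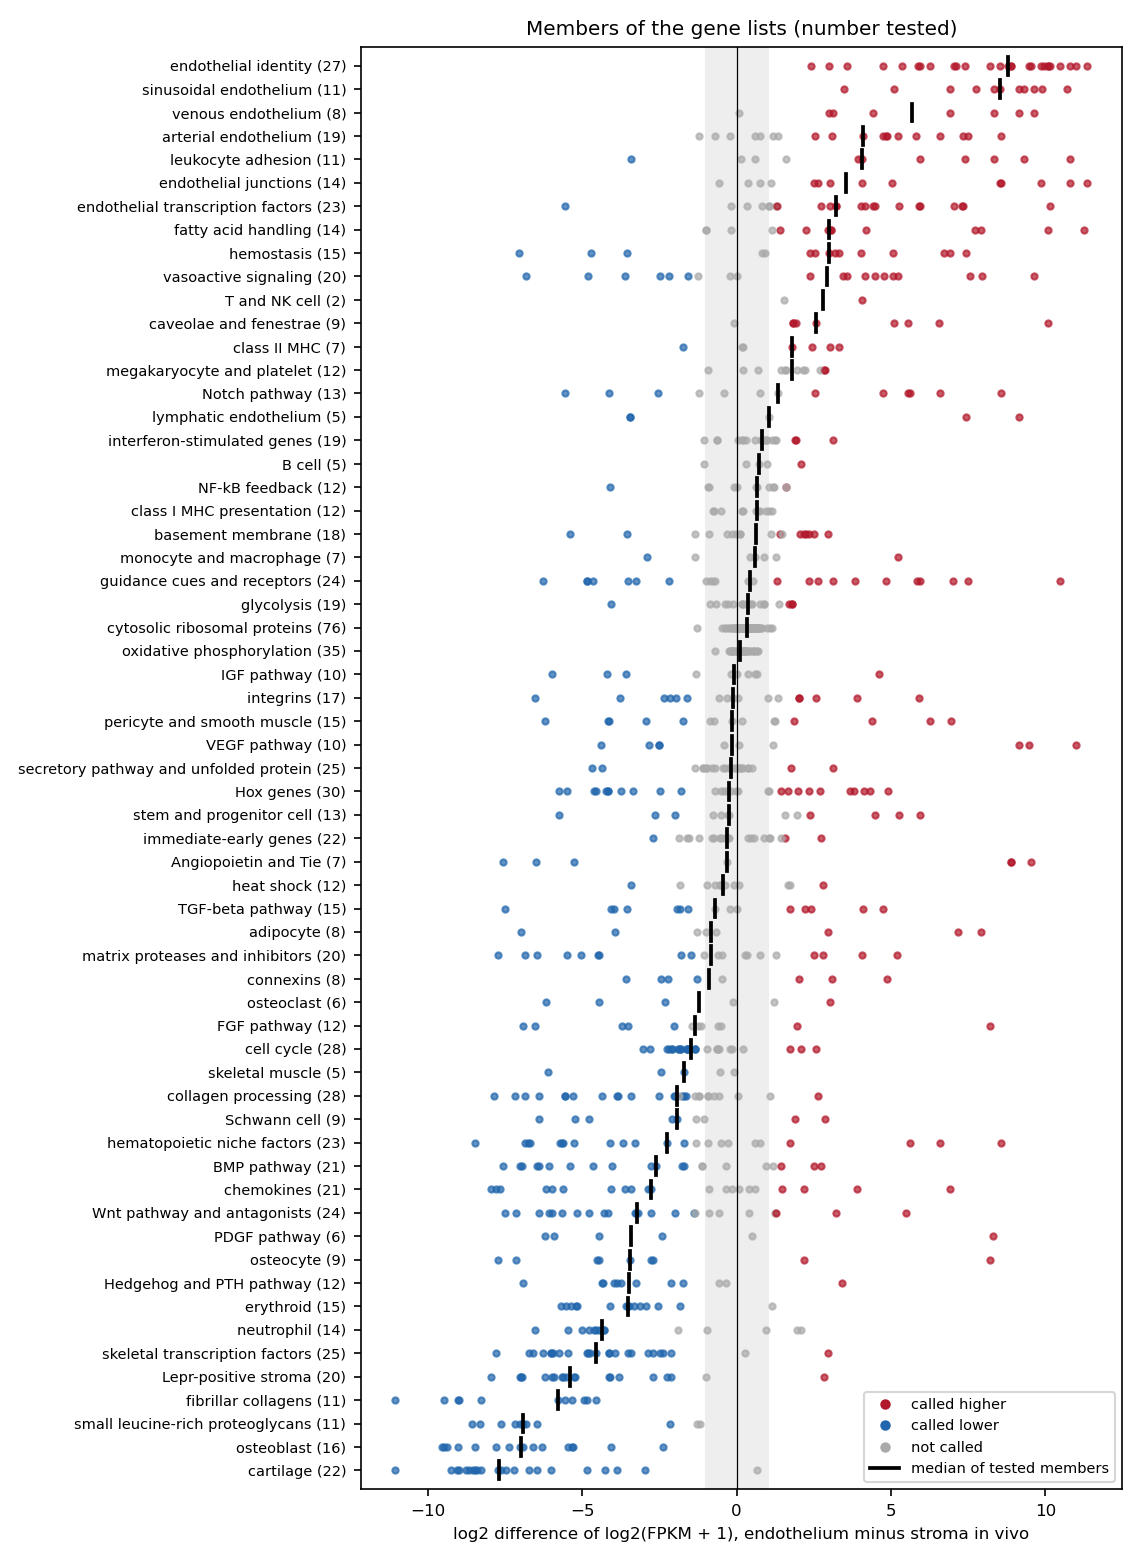
Difference in log2(FPKM + 1), endothelium minus stroma, for the tested members of each gene list (1 point per gene, red where called higher, blue where called lower, the median as a bar), ordered by median, with changes under 2-fold shaded. Endothelial identity and sinusoidal genes lie at the positive end with medians of 8.78 and 8.52, and cartilage and osteoblast genes at the negative end with medians of -7.69 and -6.97.

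Of 10 tested genes of the VEGF pathway 3 were higher and 4 lower (2 lower with the first cultures in the fit). The receptors Kdr, Flt1 and Flt4 were higher, and Flt1 stood at 741, 709 and 824 FPKM in endothelium, against 0, 0 and 0.24 FPKM in stroma. The ligand Vegfa was lower and stood at 99.7, 114 and 112 FPKM in endothelium, against 884, 777 and 707 FPKM in stroma, a difference of -2.84 ± 0.10 (adjusted p = 1.94e-06, limma). No endothelial library came near a stromal one for Vegfa. Vegfc averaged 86.8 ± 16.6 FPKM in endothelium and 495 ± 17.3 FPKM in stroma, Pgf averaged 9.73 ± 0.4302 FPKM in endothelium and 222 ± 11.9 FPKM in stroma and Figf averaged 1.69 ± 0.445 FPKM in endothelium and 14.2 ± 1.86 FPKM in stroma, and all 3 ligands were lower. The co-receptors Nrp1 and Nrp2 were not called beyond 2-fold. Nrp1 averaged 780 ± 42.9 FPKM in endothelium and 341 ± 20.7 FPKM in stroma. Its difference of 1.19 ± 0.08 was called without the 2-fold minimum. Nrp2 averaged 443 ± 29.4 FPKM in endothelium and 421 ± 45.5 FPKM in stroma.

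The angiopoietin system had the same division. Of 7 tested genes 3 were higher, namely the receptors Tek and Tie1 and the phosphatase Ptprb that acts on Tek. Lower were the ligands Angpt1 and Angpt4 and the matrix protein Svep1. Angpt1 stood at 4.52, 3.76 and 4.84 FPKM in endothelium, against 209, 188 and 222 FPKM in stroma. Tek stood at 784, 877 and 896 FPKM in endothelium, against 0.62, 0.61 and 1.28 FPKM in stroma. Angpt4 was listed at 0 in all 3 endothelial libraries and stood at 176, 221 and 173 FPKM in stroma. Angpt2, the antagonist that vessels release, averaged 42.9 ± 5.36 FPKM in endothelium and 53.8 ± 4.05 FPKM in stroma and was not called.

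Notch genes were sorted by member. Of 13 tested genes 6 were higher and 3 lower. The ligands Dll1, Dll4 and Jag2 and the receptors Notch1 and Notch4 were higher, and Jag2 averaged 189 ± 15.3 FPKM in endothelium and 0.973 ± 0.148 FPKM in stroma. The receptors Notch2 and Notch3 were lower. Notch3, a receptor of mural cells, stood at 20.7, 23.5 and 21.4 FPKM in endothelium, against 453, 359 and 391 FPKM in stroma, with no overlap. Jag1 averaged 152 ± 5.74 FPKM in endothelium and 90.4 ± 14.1 FPKM in stroma and was not called. The feedback gene Nrarp was higher and averaged 236 ± 48.8 FPKM in endothelium and 4.11 ± 1.39 FPKM in stroma. Hes1, another Notch target, averaged 329.8 ± 22.6 FPKM in endothelium and 467 ± 209 FPKM in stroma and was not called.

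In the PDGF pathway the ligand Pdgfb was higher and stood at 662, 593 and 584 FPKM in endothelium, against 0.58, 0.73 and 1.68 FPKM in stroma. The receptors Pdgfra and Pdgfrb and the ligands Pdgfa and Pdgfc were lower, and Pdgfrb stood at 10.9, 14.4 and 16.8 FPKM in endothelium, against 1209, 908 and 1167 FPKM in stroma. For both Pdgfb and Pdgfrb the libraries of the groups were widely separated. Pdgfd averaged 122 ± 6.77 FPKM in endothelium and 85.7 ± 4.45 FPKM in stroma and was not called.

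Of 21 tested genes of the BMP pathway 13 were lower and 3 higher (median -2.61). The ligands Bmp3, Bmp4, Bmp5, Bmp6, Bmp7 and Bmp8a were lower, and Bmp6 stood at 139.8, 113 and 85.7 FPKM in endothelium, against 745, 639 and 669 FPKM in stroma. Among antagonists, Grem1 averaged 5.28 ± 3.63 FPKM in endothelium and 719 ± 150.1 FPKM in stroma. Chrdl1 averaged 9.66 ± 4.402 FPKM in endothelium and 1323 ± 25.3 FPKM in stroma. Bmp2 averaged 69.6 ± 11.6 FPKM in endothelium and 34.9 ± 3.03 FPKM in stroma and was not called. The 3 genes called higher were the endothelial receptor Acvrl1, which averaged 398 ± 23.1 FPKM in endothelium and 70.1 ± 10.04 FPKM in stroma, and the targets Id1 and Id2. Id1 stood at 1408, 1055 and 1204 FPKM in endothelium, against 209.5, 177 and 166 FPKM in stroma. Id3, a related target, averaged 1938 ± 179.8 FPKM in endothelium and 2495 ± 558 FPKM in stroma and was not called.

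Of 15 tested TGF-beta genes 5 were higher and 7 lower. The counts were 3 higher and 4 lower with the first cultures in the fit, and 3 were higher with all 24 libraries. The ligand Tgfb1 was higher and averaged 488 ± 69.4 FPKM in endothelium and 146 ± 25.5 FPKM in stroma. Tgfb3 was lower and averaged 7.57 ± 0.701 FPKM in endothelium and 139.9 ± 47.04 FPKM in stroma. The receptor Tgfbr2 was higher and averaged 678 ± 84.7 FPKM in endothelium and 127 ± 10.9 FPKM in stroma. Tgfbr1 averaged 74.6 ± 8.97 FPKM in endothelium and 74.5 ± 2 FPKM in stroma and was not called. The latent ligand carriers were split, with Ltbp4 higher at 790.4 ± 94.02 FPKM in endothelium and 45.8 ± 7.64 FPKM in stroma and Ltbp1, Ltbp2 and Ltbp3 lower. Ltbp2 averaged 2.62 ± 1.22 FPKM in endothelium and 634 ± 115 FPKM in stroma. The targets Ctgf and Cyr61 were lower and Ctgf averaged 1336 ± 185 FPKM in endothelium and 4737 ± 597 FPKM in stroma.

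Of 24 tested genes of the Wnt pathway and its antagonists 16 were lower and 3 higher (median -3.23). The decoy Sfrp4 stood at 6.68, 10.6 and 20.5 FPKM in endothelium, against 2354, 2001 and 2406 FPKM in stroma. Wif1, which binds Wnt ligands, stood at 0.9, 1.84 and 5.2 FPKM in endothelium, against 422, 447 and 508 FPKM in stroma. For both genes every stromal library was far above every endothelial one. Rspo2 and Rspo3, which strengthen Wnt signals, were lower, and Rspo3 averaged 0.303 ± 0.525 FPKM in endothelium and 104 ± 3.96 FPKM in stroma. The ligand Wnt4 averaged 0.63 ± 0.263 FPKM in endothelium and 109 ± 7.13 FPKM in stroma. The receptors Fzd4 and Fzd6 were among the genes called higher, and Fzd4 stood at 707, 626 and 678 FPKM in endothelium, against 79.4, 59.9 and 76.2 FPKM in stroma. The endogenous readout Axin2 averaged 1.89 ± 0.202 FPKM in endothelium and 6.34 ± 1.21 FPKM in stroma and was not called.

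The FGF receptors Fgfr1 and Fgfr2 were lower in endothelium, with Fgfr1 at 32.4 ± 3.98 FPKM in endothelium and 379.6 ± 19.5 FPKM in stroma and Fgfr2 at 5.15 ± 1.86 FPKM in endothelium and 554 ± 19.8 FPKM in stroma. The ligand Fgf7 averaged 1.64 ± 0.741 FPKM in endothelium and 308 ± 27.7 FPKM in stroma. Fgf23, a phosphate hormone known as a product of osteocytes, was higher and stood at 161, 258 and 1043 FPKM in endothelium, against 0, 0.68 and 0 FPKM in stroma, with replicate 3 above the other two. In the IGF pathway the ligand Igf1 was lower and averaged 10.8 ± 1.66 FPKM in endothelium and 139 ± 11.3 FPKM in stroma, and Igf2 was not called. Of the binding proteins, Igfbp2 was higher and averaged 120 ± 22.98 FPKM in endothelium and 4.103 ± 1.69 FPKM in stroma, Igfbp5 was lower and averaged 111 ± 32.2 FPKM in endothelium and 6887 ± 584 FPKM in stroma, and Igfbp3, Igfbp4 and Igfbp7 were not called.

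Of 12 tested Hedgehog and PTH genes 9 were lower and 1 higher (median -3.49). The transcription factor and target Gli1 stood at 0.4, 0.49 and 1.12 FPKM in endothelium, against 40.1, 32.5 and 26.1 FPKM in stroma. The cartilage ligand Ihh was listed at 0 in all 3 endothelial libraries and stood at 12.2, 10.6 and 19.6 FPKM in stroma. The PTH receptor Pth1r stood at 4.22, 4.7 and 3.49 FPKM in endothelium, against 536, 574 and 771 FPKM in stroma. No endothelial library reached 10 FPKM for any of the 3. The gene called higher was another ligand, Dhh, which stood at 9.22, 14.1 and 15.3 FPKM in endothelium, against 0, 0 and 1.07 FPKM in stroma.

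Ligands and receptors were then set side by side in 44 pairs made of 81 genes, written from general knowledge. How well the binding of each pair is established, as for Slit2 with Robo4, was not examined. The pairs were chosen with earlier results of these data known. Receptors such as Kdr and Tek are also markers of endothelium, so the counts depend on which pairs were written. Over all tested genes 12.1% were higher and 16.3% lower in endothelium. In 10 pairs the ligand was lower and the receptor higher in endothelium, and in 3 pairs the reverse held. With the first cultures in the fit these counts were 7 and 3, and with all 24 libraries 9 and 3. In 5 pairs both genes were higher, in 5 both were lower, and in the other 21 at least 1 gene was not called. The 10 pairs with the ligand on the stromal side were Vegfa with Kdr, Vegfa with Flt1, Pgf with Flt1, Vegfc with Flt4, Angpt1 with Tek, Cxcl12 with Ackr3, Sema3c with Plxnd1, Slit2 with Robo4, Tnfsf11 with Tnfrsf11a and Wnt5a with Fzd4. They share genes, since Vegfa and Flt1 each stand in 2 pairs. The 3 pairs with the ligand on the endothelial side were Pdgfb with Pdgfrb, Edn1 with Ednra and Dhh with Ptch1. The guidance ligand Slit2 stood at 0, 0 and 0.72 FPKM in endothelium, against 82.8, 104 and 90.1 FPKM in stroma, against Robo4 levels over 1000 FPKM in each endothelial library. The chemokine scavenger Ackr3 averaged 233 ± 82.8 FPKM in endothelium and 47.95 ± 2.52 FPKM in stroma. Tnfsf11, which drives osteoclast formation, stood at 0, 0.97 and 2.15 FPKM in endothelium, against 241, 168 and 168 FPKM in stroma. Its receptor Tnfrsf11a stood at 6.39, 8.74 and 6.44 FPKM in endothelium and was listed at 0 in all 3 stromal libraries. Both genes of the ephrin pair Efnb2 with Ephb4 and of the apelin pair Apln with Aplnr were higher, and Aplnr averaged 788 ± 52.04 FPKM in endothelium and was listed at 0 in stroma. These are RNA levels, and no contact or signal between the cells was measured.

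**Figure D4:**
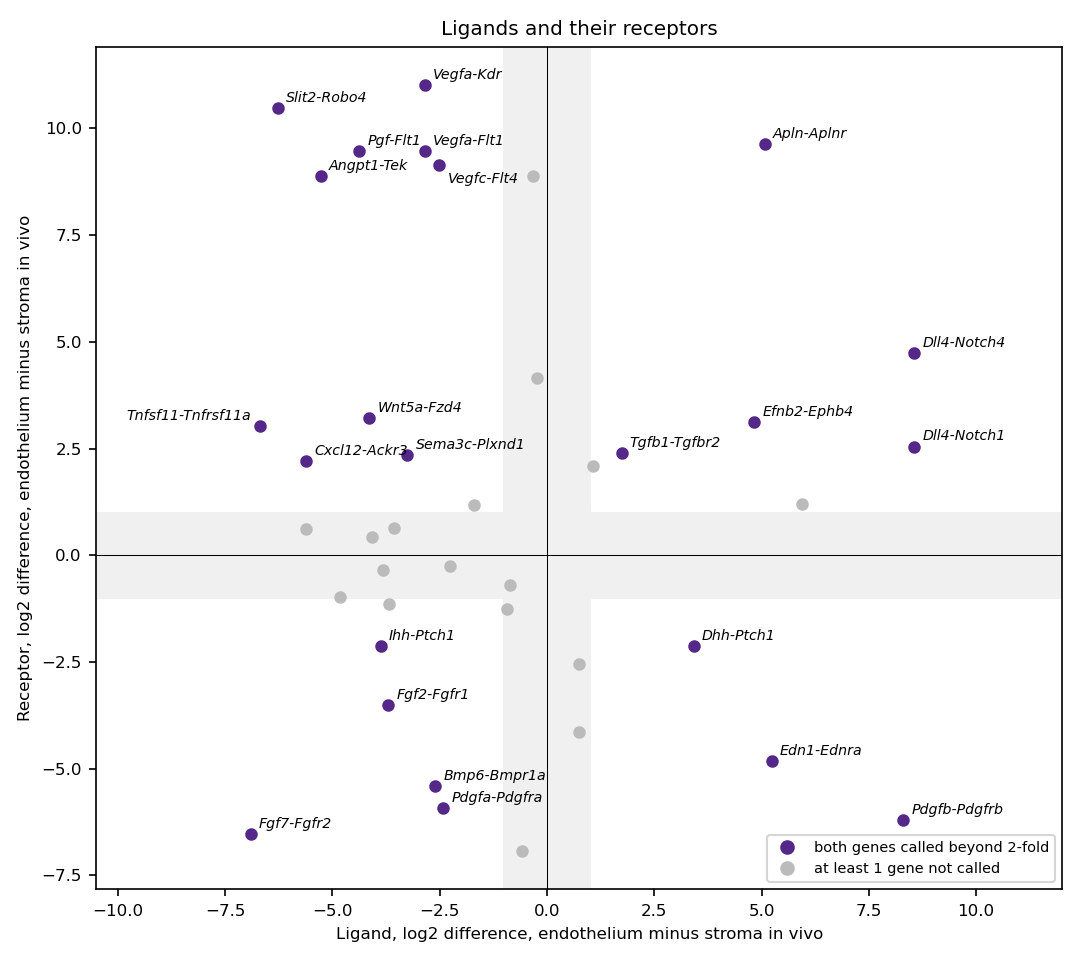
Difference in log2(FPKM + 1), endothelium minus stroma, of the ligand (horizontal axis) and of its receptor (vertical axis), 1 point for each of the 40 pairs in which both genes were tested, with changes under 2-fold shaded and pairs named where both genes were called. The 10 pairs with a lower ligand and a higher receptor lie at the upper left, and the 3 with the reverse at the lower right.

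Of 24 tested guidance cues and receptors 11 were higher and 7 lower. The class 3 semaphorins did not move as one, since Sema3a, Sema3f and Sema3g were higher and Sema3c and Sema3d lower. Sema3f stood at 293, 321 and 438 FPKM in endothelium, against 1.7, 1.43 and 1.95 FPKM in stroma. Sema3d stood at 0.63, 1.29 and 1.85 FPKM in endothelium, against 46.3, 64.5 and 80.5 FPKM in stroma. The groups did not overlap for either gene. The ligands Slit2 and Slit3 and the receptor Robo2 were lower.

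Of 23 tested niche factors 13 were lower in endothelium and 4 higher (median -2.26). Kitl, the ligand of the stem cell receptor Kit, stood at 362, 304 and 270.0 FPKM in endothelium, against 1582, 1409 and 1468 FPKM in stroma, a difference of -2.26 ± 0.12 (adjusted p = 5.17e-05, limma). Endothelial libraries thus held it at 270.04 to 362 FPKM. The lymphoid cytokine Il7 stood at 2.58, 1.68 and 2.42 FPKM in endothelium, against 178, 155 and 153 FPKM in stroma. The macrophage factor Csf1 averaged 116 ± 17.9 FPKM in endothelium and 1994 ± 357 FPKM in stroma. Il34, another ligand of the same receptor, averaged 7.31 ± 1.89 FPKM in endothelium and 891 ± 46.2 FPKM in stroma. The 4 factors called higher were the Notch ligands Dll1, Dll4 and Jag2 and Tgfb1. Ptn averaged 4.45 ± 1.98 FPKM in endothelium and 5.35 ± 1.46 FPKM in stroma, Flt3l averaged 42.9 ± 3.79 FPKM in endothelium and 61.6 ± 4.13 FPKM in stroma and Il6 averaged 11.4 ± 6.86 FPKM in endothelium and 20.5 ± 3.66 FPKM in stroma, none of them called. Esm1, known as a secreted product of endothelium, was lower and stood at 32.8, 42.9 and 49.6 FPKM in endothelium, against 2415, 2057 and 2253 FPKM in stroma.

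Of 21 tested chemokine genes 11 were lower and 4 higher (median -2.77), with 2 higher with the first cultures in the fit. Cxcl14 stood at 12.5, 14.9 and 28.8 FPKM in endothelium, against 4588, 4174 and 5029 FPKM in stroma. The monocyte attractant Ccl2 stood at 9.82, 15.9 and 39.4 FPKM in endothelium, against 1587, 851 and 2021 FPKM in stroma. Ccl7 was listed at 0 in endothelium and averaged 225 ± 31.3 FPKM in stroma. Ccl2 and Ccl7 were both above 200 FPKM on average in stroma. Of the scavenging receptors, Ackr4 was lower and averaged 5.77 ± 3.32 FPKM in endothelium and 1260 ± 73.6 FPKM in stroma, while Ackr2, Ackr3 and Darc were higher. Cxcl9 averaged 179.8 ± 23.5 FPKM in endothelium and 138 ± 37.8 FPKM in stroma and Cxcl10 averaged 179.7 ± 113 FPKM in endothelium and 156 ± 42.8 FPKM in stroma, and neither of these interferon-induced chemokines was called.

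Of 20 tested genes of leptin receptor positive stroma 18 were lower in endothelium and 1 higher (median -5.40). Foxc1, a factor that maintains these cells, stood at 36.4, 44.2 and 58.7 FPKM in endothelium, against 305, 296 and 315 FPKM in stroma. Ebf3, another such factor, stood at 87.8, 78.1 and 68.9 FPKM in endothelium, against 1499, 1376 and 1316 FPKM in stroma, a difference of -4.15 ± 0.10. Hp, which binds free hemoglobin, averaged 57.3 ± 31.5 FPKM in endothelium and 6877 ± 255 FPKM in stroma. Gas6, a ligand of TAM receptors, averaged 406 ± 10.9 FPKM in endothelium and 5765 ± 427 FPKM in stroma. The gene called higher was Bst1, a surface enzyme, which averaged 16.6 ± 3.22 FPKM in endothelium and 1.53 ± 0.6799 FPKM in stroma and was not called with the first cultures in the fit.

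Of 25 tested transcription factors of the skeleton 23 were lower in endothelium and 1, Pparg, was higher (not called with the first cultures in the fit; median -4.56). Runx2, which directs bone formation, stood at 2.23, 2.58 and 2.41 FPKM in endothelium, against 329, 357 and 312 FPKM in stroma. Sox9, which directs cartilage formation, stood at 0, 0.44 and 0 FPKM in endothelium, against 124, 89.3 and 148 FPKM in stroma. The limb mesenchyme factor Prrx1 stood at 3.39, 3.32 and 3.74 FPKM in endothelium, against 295, 286 and 276 FPKM in stroma. No endothelial library exceeded 10 FPKM for these 3. Msx1 averaged 33.1 ± 5.49 FPKM in endothelium and 27.3 ± 0.405 FPKM in stroma and was the tested gene not called.

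All 16 tested osteoblast genes were lower in endothelium (median -6.97), from Alpl, the phosphatase of mineralising cells, which averaged 142 ± 40.95 FPKM in endothelium and 729 ± 143 FPKM in stroma, to Ibsp, a mineral-binding protein, which averaged 66.2 ± 36.5 FPKM in endothelium and 10340 ± 1164 FPKM in stroma. Of 9 tested osteocyte genes 7 were lower, among them Dmp1, which stood at 0, 0.61 and 0.72 FPKM in endothelium, against 211, 339 and 367 FPKM in stroma, and Phex, which averaged 0.56 ± 0.1997 FPKM in endothelium and 218 ± 4.36 FPKM in stroma. The 2 called higher were Fgf23 and Ackr3, of which 1 was called with the first cultures in the fit. The osteocyte antagonist Sost was not tested and stayed below 3 FPKM on average in both groups. Of 22 tested cartilage genes 21 were lower (median -7.69). Col10a1, a marker of hypertrophic chondrocytes, was listed at 0 in all 3 endothelial libraries and stood at 116, 109.5 and 252 FPKM in stroma. Prg4, the lubricant of joint surfaces, stood at 44.1, 42.2 and 25.9 FPKM in endothelium, against 758, 885 and 549.9 FPKM in stroma. Stromal replicate 3 was the highest for Col10a1. Matn4 averaged 12.7 ± 1.71 FPKM in endothelium and 7.69 ± 1.22 FPKM in stroma and was the cartilage gene not called.

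Extracellular matrix genes were called on both sides. All 11 tested fibrillar collagens were lower in endothelium (median -5.77), and Col3a1 stood at 2.45, 3.37 and 6.88 FPKM in endothelium, against 323, 221 and 268 FPKM in stroma. Of 11 tested small leucine-rich proteoglycans 9 were lower (median -6.94), among them Lum, which averaged 2.43 ± 1.25 FPKM in endothelium and 1053 ± 132 FPKM in stroma. Bgn was called lower at a high endothelial level, and averaged 2086 ± 251 FPKM in endothelium and 9246 ± 806 FPKM in stroma. Of 18 tested basement membrane genes 7 were higher and 2 lower. Only 1 was called higher with the first cultures in the fit, and 3 with all 24 libraries. The type IV collagen chain Col4a1 stood at 1722, 1556 and 1879 FPKM in endothelium, against 462, 345 and 440.4 FPKM in stroma, a difference of 2.05 ± 0.14 (adjusted p = 3.13e-04, limma), without overlap. Hspg2, the core protein of perlecan, averaged 1051 ± 64.4 FPKM in endothelium and 220.3 ± 33.5 FPKM in stroma. The laminin chain Lama5 averaged 226 ± 1.93 FPKM in endothelium and 27.97 ± 3.09 FPKM in stroma. The laminin chain Lama2 was lower and averaged 0.387 ± 0.0379 FPKM in endothelium and 57.8 ± 6.902 FPKM in stroma. Lamc1, shared by most laminins, averaged 331 ± 28.3 FPKM in endothelium and 369.5 ± 31.4 FPKM in stroma and was not called.

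Of 28 tested genes of collagen processing 17 were lower and 1 higher (median -1.92). The crosslinking oxidase Lox stood at 6.25, 5.47 and 7.86 FPKM in endothelium, against 569, 583 and 741 FPKM in stroma. The propeptidase Adamts2 averaged 4.78 ± 2.71 FPKM in endothelium and 630.3 ± 53.5 FPKM in stroma. The lysyl hydroxylases moved apart, with Plod1 higher at 644 ± 96.8 FPKM in endothelium and 102 ± 12.6 FPKM in stroma, Plod2 lower at 31.4 ± 4.26 FPKM in endothelium and 478 ± 87.9 FPKM in stroma, and Plod3 not called at 183 ± 25.8 FPKM in endothelium and 177 ± 22.5 FPKM in stroma. General folding enzymes such as P4hb, at 951 ± 113 FPKM in endothelium and 1405 ± 186 FPKM in stroma, were not called.

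Of 20 tested proteases and inhibitors 4 were higher and 9 lower. The collagenase Mmp13 stood at 6.48, 17.2 and 22.2 FPKM in endothelium, against 2760.5, 3584 and 2988 FPKM in stroma. The inhibitors Timp1 and Timp2 were lower, and Timp1 averaged 19.03 ± 3.103 FPKM in endothelium and 468 ± 181 FPKM in stroma. Timp4 was higher and averaged 483 ± 171 FPKM in endothelium and 81.3 ± 7.698 FPKM in stroma. Timp3 stood at 1889, 1781 and 2377 FPKM in endothelium, against 677, 448 and 1886 FPKM in stroma and was not called, with stromal replicate 3 within the endothelial range. Of 17 tested integrins 5 were higher and 6 lower, but 2 were higher and 3 lower with the first cultures in the fit and likewise with all 24 libraries. The laminin-binding chain Itga6 stood at 438, 321 and 352 FPKM in endothelium, against 5.21, 4.44 and 5.87 FPKM in stroma. The collagen-binding chain Itga11 averaged 0.267 ± 0.462 FPKM in endothelium and 111 ± 4.33 FPKM in stroma. The common partner Itgb1 averaged 1018 ± 85.6 FPKM in endothelium and 989.5 ± 107 FPKM in stroma and was not called.

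Hox genes, which record position along the body and limb axes, were sorted by cluster. Of 30 tested Hox genes 10 were higher and 11 lower in endothelium (5 higher with the first cultures in the fit), and the calls in each cluster ran in a single direction. In the B cluster 7 of 8 tested genes were higher, in the D cluster 3 of 4 were higher, in the A cluster 4 of 11 were lower, and in the C cluster 7 of 7 were lower. Hoxb6 stood at 80.9, 95.1 and 76.96 FPKM in endothelium, against 6.2, 6.34 and 4.42 FPKM in stroma, a difference of 3.69 ± 0.14. Hoxb8 stood at 54.9, 51.4 and 58.9 FPKM in endothelium, against 1.03, 0.88 and 0.72 FPKM in stroma. Every endothelial library was above every stromal one for both genes. Hoxc10 was listed at 0 in all 3 endothelial libraries and stood at 53.6, 52.4 and 51.7 FPKM in stroma. Hoxc6 stood at 0, 1.64 and 0 FPKM in endothelium, against 64.1, 62.6 and 55.9 FPKM in stroma, a difference of -5.48 ± 0.36 (adjusted p = 1.99e-05, limma). Summed over the C cluster, endothelial libraries held 0 to 2.49 FPKM and stromal ones 208.6 to 213.94 FPKM. Within the A cluster the 4 genes called lower were Hoxa9, Hoxa10, Hoxa11 and Hoxa13, the 4 last members towards its 5′ end, and Hoxa10 stood at 9.36, 12.5 and 11.99 FPKM in endothelium, against 130.4, 128 and 118 FPKM in stroma. The other tested genes of the A cluster were not called, and Hoxa5 averaged 77.1 ± 13.8 FPKM in endothelium and 95.5 ± 14.2 FPKM in stroma. The B cluster gene not called was Hoxb2, which averaged 36.4 ± 4.08 FPKM in endothelium and 35.4 ± 1.51 FPKM in stroma.

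**Figure D5:**
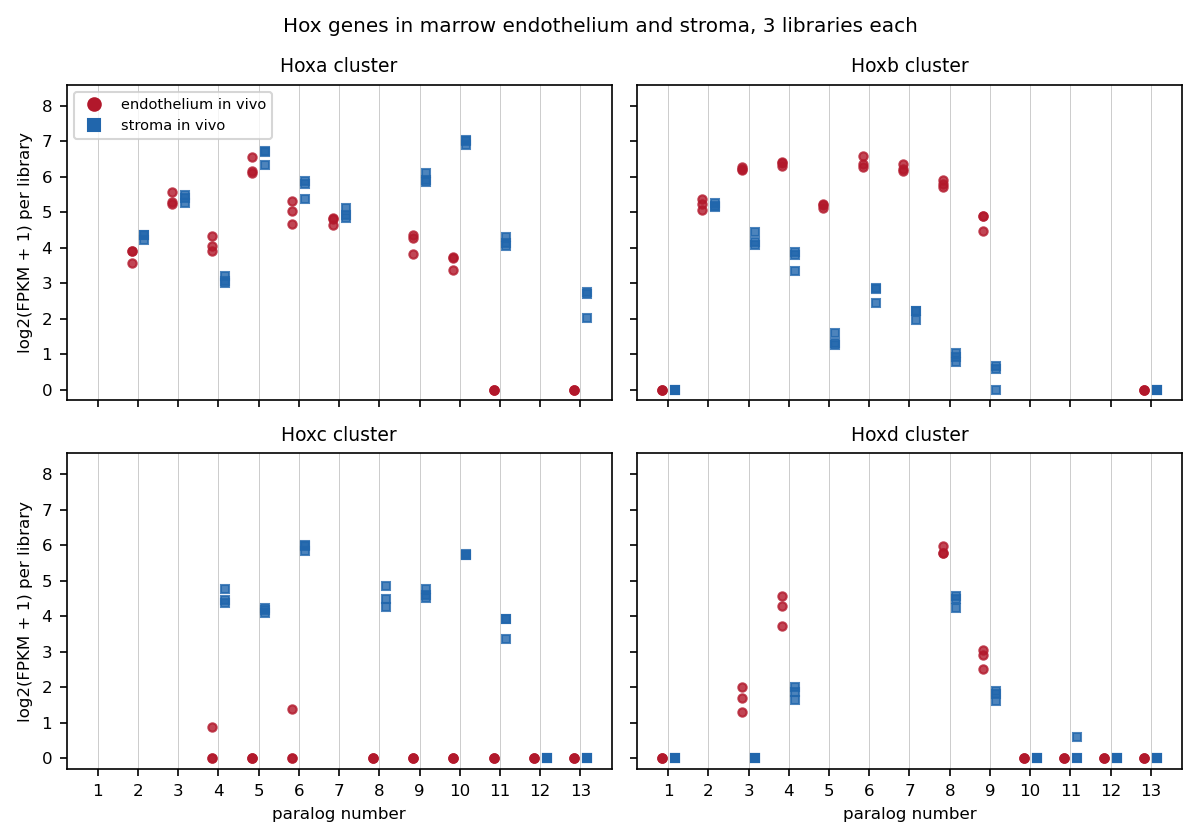
log2(FPKM + 1) (vertical axis) of Hox genes by their number within the cluster (horizontal axis), 1 panel per cluster and 1 point per library, with endothelial libraries (red circles) left of stromal libraries (blue squares). Genes of the B cluster from Hoxb3 to Hoxb9 are higher in endothelium, and genes of the C cluster are at or near 0 in endothelium.

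Of 28 tested cell cycle genes 16 were lower and 3 higher (median -1.47). The count depended on the libraries fitted, with 6 lower and 1 higher with the first cultures in the fit, and 13 lower and 1 higher with all 24 libraries. The proliferation antigen Mki67 stood at 19.2, 19.4 and 11.3 FPKM in endothelium, against 74.2, 91.4 and 81.5 FPKM in stroma, with no overlap, and Rrm2, which makes deoxynucleotides, averaged 29.1 ± 9.29 FPKM in endothelium and 203 ± 18.7 FPKM in stroma. The 3 called higher were the cyclin Ccnd1, which averaged 196 ± 11.5 FPKM in endothelium and 46.5 ± 10.2 FPKM in stroma, and the inhibitors Cdkn1a and Cdkn1c. Cdkn1a stood at 987, 642 and 979 FPKM in endothelium, against 118, 139 and 173 FPKM in stroma, a difference of 2.58 ± 0.20 (adjusted p = 2.69e-04, limma). Erythroid precursors also express proliferation genes, and the erythroid sums given above were higher in stroma. Their part in this difference was not tested.

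Of 19 tested glycolytic genes 3 were higher and 1 lower, where 12.1% and 16.3% of all tested genes were, and 0 were higher with the first cultures in the fit or with all 24 libraries (limma). The pyruvate kinase gene Pkm averaged 592 ± 57.6 FPKM in endothelium and 169.6 ± 22.8 FPKM in stroma. The hexokinase Hk2 was lower and stood at 0.67, 1.12 and 0.95 FPKM in endothelium, against 31.2, 18.6 and 51.6 FPKM in stroma. Of 8 tested connexins 3 were higher and 4 lower (2 lower with the first cultures in the fit), and the main gap junction protein of stroma, Gja1, stood at 646, 672 and 879 FPKM in endothelium, against 4005, 3244 and 3006 FPKM in stroma, lower in endothelium without overlap.

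For 7742 of the tested genes, 54%, the 95% interval of the difference lay within 2-fold in either direction, which is a bound on the difference and not equality. This held for 35 of 35 tested oxidative phosphorylation genes and 66 of 76 cytosolic ribosomal protein genes. The median of the oxidative phosphorylation list was 0.12, and it changed sign under quantile normalization, where it was -0.09. Values of ribosomal proteins may be split with their many processed copies. Of 12 tested class I presentation genes, 0 were called by limma beyond 2-fold and 0 had an unadjusted p under 0.05 in that test, while 10 were called without the 2-fold minimum, 7 higher and 3 lower. The class I light chain B2m stood at 13769, 13229 and 14348 FPKM in endothelium, against 12252, 12117 and 12468 FPKM in stroma, a difference of 0.17 ± 0.35. The groups did not overlap. This SE draws on the spread of other genes of like level, through limma's mean-variance trend, and not on these libraries alone. Of 7 tested class II genes 4 were higher and 1 lower. The class II chain H2-Aa stood at 46.2, 31.9 and 34.8 FPKM in endothelium, against 2.9, 3.59 and 2.05 FPKM in stroma, with no overlap. Cd74, the invariant chain that class II binds, averaged 46.2 ± 9.34 FPKM in endothelium and 4.83 ± 1.33 FPKM in stroma. The gene called lower was H2-DMb1, which helps load peptides and stood at 14.4, 7.11 and 6.89 FPKM in endothelium, against 31.2, 28.6 and 38.4 FPKM in stroma. Its call (adjusted p = 0.0444, limma) was lost without endothelial replicate 2 (adjusted p = 0.14) or 3 (0.14) and without stromal replicate 1 (0.105), 2 (0.0765) or 3 (0.153). Apoe, a lipid carrier, averaged 3907 ± 450.4 FPKM in endothelium and 5212 ± 370.1 FPKM in stroma, and Igfbp7 averaged 5939 ± 471 FPKM in endothelium and 4635 ± 495 FPKM in stroma, both with an interval within 2-fold. Of 19 tested interferon-stimulated genes 3 were higher, where 12.1% of all tested genes were, and the others were not called. The count was 1 with the first cultures in the fit. Among those called was Bst2, which averaged 1044 ± 67.7 FPKM in endothelium and 273 ± 21.8 FPKM in stroma. The immediate-early genes Fos and Jun, which respond quickly to many stimuli, were high in both groups. Fos stood at 5148, 6929 and 10249 FPKM in endothelium, against 10411, 9263 and 7753 FPKM in stroma, and Jun averaged 4243 ± 779.7 FPKM in endothelium and 3304 ± 687 FPKM in stroma, and neither was called.

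Markers of further cell types were present in part. Of 15 tested pericyte and smooth muscle genes 4 were higher and 5 lower, where 12.1% and 16.3% of all tested genes were. The potassium channel subunits Kcnj8 and Abcc9 were higher in endothelium, and Kcnj8 stood at 978, 1080.1 and 1204 FPKM in endothelium, against 6.67, 7.2 and 10.1 FPKM in stroma. The pericyte proteoglycan Cspg4 was lower and averaged 2.53 ± 0.699 FPKM in endothelium and 62.7 ± 18.1 FPKM in stroma. Rgs5, another pericyte gene, averaged 109 ± 7.43 FPKM in endothelium and 99.03 ± 31.03 FPKM in stroma and was not called. Of 9 tested Schwann cell genes 2 were higher and 5 lower, with 0 higher with the first cultures in the fit (limma), 1 higher with all 24 libraries and 3 lower with a filter at 5 FPKM. Of 5 tested skeletal muscle genes 3 were lower (1 with a filter at 5 FPKM), and the troponin Tnni2 was listed at 0 in all 3 endothelial libraries and stood at 57.8, 58.5 and 92.4 FPKM in stroma. The osteoclast protease Ctsk stood at 3.9, 5.9 and 6.88 FPKM in endothelium, against 453, 437 and 506 FPKM in stroma, while the fusion genes Ocstamp and Dcstamp were listed at 0 in all 6 libraries. Ly6c2, a marker of monocytes, stood at 1008, 904 and 905 FPKM in endothelium, against 33.6, 18.2 and 22.4 FPKM in stroma. Its near copy Ly6c1 was also called higher in endothelium, and the split of reads between them is uncertain.

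A few genes were uneven between libraries of a group. Genes were taken that reached 50 FPKM in at least 1 library of a group, a rule that admits genes with a lower mean. In FPKM + 1, the highest and lowest library differed by over 2-fold for 79 of 6298 such genes in endothelium (1.25%). In stroma this held for 85 of 6097 (1.39%). Endothelial replicate 3 was the highest for Sele, Lipg, Ubd, Fgf23, Cxcl1, Ier3 and Tnfaip3. The chemokine Cxcl1 stood at 40.7, 59.5 and 285 FPKM in endothelium, against 216, 166 and 128 FPKM in stroma and was not called with all libraries. Endothelial replicate 3 alone exceeded the stromal values, and without it Cxcl1 was lower by a log2 difference of -1.73 (adjusted p = 0.0476, limma). Ier3 stood at 448, 652 and 1542 FPKM in endothelium, against 431, 370.0 and 299 FPKM in stroma and was not called. Stromal replicate 3 was the highest for Col2a1, Col9a1, Col10a1 and Timp3. Mecom, a stem cell and endothelial factor, stood at 51.2, 50.4 and 3.13 FPKM in endothelium and was listed at 0 in all 3 stromal libraries, with endothelial replicate 3 far below the other two. Its call was lost without any 1 of the stromal libraries, with adjusted p of 0.054, 0.0534 and 0.0512 without replicates 1, 2 and 3 (limma).

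Each difference in vivo was also set against the difference between the same cell types cultured alone (titled as Akt1 cultures alone, 3 libraries each), in a fit of these 12 libraries with 14973 tested genes. The difference of differences, in vivo minus alone, exceeded 2-fold in the positive direction for 2112 genes (14.1%) and in the negative direction for 2340 (15.6%), 29.7% in all, with a median of 0.06. Set against the first cultures instead, 803 genes were positive and 960 negative, so these counts and those below depend on the culture chosen. Setting and the name Akt1 change together between these groups and cannot be told apart. Positive means that endothelium stood further above, or less far below, stroma in vivo than alone.

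Sinusoidal genes were mostly positive. Of 12 tested sinusoidal genes 10 were positive and 1 negative. Stab2 averaged 0.423 ± 0.195 FPKM in endothelium alone and 1.13 ± 0.132 FPKM in stroma alone, against over 1000 FPKM in each endothelial library in vivo, and its difference of differences was 11.30 ± 0.19 (adjusted p = 2.77e-12, limma). Mrc1 was listed at 0 in both cell types alone, a difference of differences of 9.30 ± 0.15. Lyve1 was the negative one, and averaged 68.2 ± 6.94 FPKM in endothelium alone and was listed at 0 in stroma alone, while it was near 0 in vivo. Of 14 tested fatty acid genes 9 were positive and 1 negative, and Fabp4 averaged 97.1 ± 9.69 FPKM in endothelium alone and 4.99 ± 1.55 FPKM in stroma alone. Arterial genes were divided, with 5 positive and 7 negative of 19 tested.

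On the stromal side, 16 of 22 tested cartilage genes were negative and 1 was positive, and Acan was listed at 0 in both cell types alone. Of 16 tested osteoblast genes 11 were negative and 2 positive, and Bglap was listed at 0 in both cell types alone. Of 20 tested genes of leptin receptor positive stroma 10 were negative and 1 positive, and Lepr was listed at 0 in both cell types alone. Of 12 tested Hedgehog and PTH genes 11 were negative. Of 23 tested niche factors 14 were negative and 5 positive. Kitl averaged 534 ± 22.1 FPKM in endothelium alone and 337 ± 3.02 FPKM in stroma alone, a difference of differences of -2.92 ± 0.13. Of 28 tested cell cycle genes 20 were negative and 1 positive.

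The Hox clusters were also summed in the cells cultured alone. Summed means of the B cluster were 1044 FPKM in endothelium alone, and all its genes were listed at 0 in stroma alone. This did not hold in the first cultures of stroma, where genes from Hoxb2 to Hoxb9 averaged 1.307 (Hoxb9) to 21.43 FPKM (Hoxb7). For the C cluster all genes were listed at 0 in endothelium alone, and the summed mean in stroma alone was 90.45 FPKM. The A cluster sums were 94.81 FPKM in endothelium alone and 1086 FPKM in stroma alone. The D cluster sums were 489.3 FPKM in endothelium alone and 142.2 FPKM in stroma alone.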

How the data were processed

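The 6 in vivo libraries hold polyA RNA of marrow endothelium and stroma from C57BL/6J mice. The authors deposited FPKM values per gene symbol, made with TopHat and Cufflinks on build mm9, per the submitters' processing notes; versions are not given in the sources used here. Library sums are high for plain FPKM, and a further scaling is not stated. A step that single reads would leave was searched for in the ratios of low values between libraries. Over 15 pairs of libraries the fullest bin held 3.57% to 6.5% of genes, at most 13.2 times the median bin. The spacing of the bins was not measured, so these values do not decide whether such a step is present. Depth is thus unknown, and the spread between libraries is the measure of error. No column of another sample was used (0 such columns).

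From these values log2(FPKM + 1), with a pseudocount of 1, was fitted with limma 3.58.1 in R 4.3.3 over the 6 libraries, with a mean-variance trend, for genes at 1 FPKM or more in at least 3 libraries. The fit was limited to these libraries so that cultured cells did not set the spread. Calls used treat with a 2-fold minimum, because the 2 cell types differ at most genes, and an adjusted p under 0.05 (method of Benjamini and Hochberg, over every tested gene). The comparison with cells cultured alone used 12 libraries in the same way. The fits were tested on simulated data with known changes. Figures were drawn with matplotlib 3.10.9 in Python 3.11.15.

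Genes named are the 12 with the largest difference in each direction among those called with a mean of at least 20 FPKM, the 6 in each direction for the comparison with culture, the 10 highest genes of each cell type, the 6 with like levels and the highest means, and members of 61 gene lists with 1071 entries found in the files. Further list members, the uneven genes and the groups in the closing observations were chosen after their values were seen. The members, lists and pairs were chosen with earlier results of these data known. Lists overlap, since 15 of 61 share no gene with another. A list is described by its counts, to be read against the share of all tested genes called.

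Replicate numbers in the titles were checked for pairing. Deviations of same-numbered libraries correlated at -0.093, 0.0681 and -0.0503, and those of unlike-numbered libraries at -0.0707 to 0.115. No shared deviation by number was thus seen. With 3 libraries per group this cannot show whether same-numbered libraries share an animal or a preparation. Alternatives changed the pseudocount, filter, scaling, libraries in the fit, minimum change, replicate block and cultured setting, and left out each library. Promoters and motifs came from RefSeq tables of GRCm38.p6, and no coordinates were taken from the files.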

Additional observations from a re-analysis of the deposited data

Results flagged for a closer look

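For 12 genes, the 6 largest in each direction, the difference between endothelium and stroma in vivo differed from that between the same cell types alone, by a test of the difference itself (limma, 12 libraries, beyond 2-fold). The differences of differences are on the log2(FPKM + 1) scale, and they depend on the pseudocount where a group is listed at 0.

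The largest positive value was that of the transcription factor Bhlhe22, 11.55, which averaged 17.7 ± 3.78 FPKM in endothelium and was listed at 0 in stroma in vivo and was listed at 0 in endothelium alone and averaged 162 ± 0.311 FPKM in stroma alone. Stab2 had 11.30, and it averaged 0.423 ± 0.195 FPKM in endothelium alone and 1.13 ± 0.132 FPKM in stroma alone. Ubd had 11.09, and it was listed at 0 in both cell types alone. These 2 genes are endothelial in vivo and near or at 0 in both cell types alone. For Aebp1, at 10.82, and Ptn, at 10.79, the cultured stroma carried the level, since Aebp1 averaged 1.68 ± 0.303 FPKM in endothelium alone and 1908 ± 138 FPKM in stroma alone and Ptn was listed at 0 in endothelium alone and averaged 2140 ± 96.4 FPKM in stroma alone. The smooth muscle actin gene Acta2 had 10.65. It averaged 86.1 ± 12.2 FPKM in endothelium and 24.04 ± 7.904 FPKM in stroma in vivo and averaged 0.38 ± 0.0458 FPKM in endothelium alone and 622 ± 73.6 FPKM in stroma alone.

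The largest negative values were -13.68 for Serpina1e and -12.01 for Serpina1d, near copies that encode a protease inhibitor and may share reads. Serpina1e averaged 1.22 ± 0.562 FPKM in endothelium and 168 ± 37.2 FPKM in stroma in vivo and averaged 169.6 ± 5.42 FPKM in endothelium alone and was listed at 0 in stroma alone. Ptgds, a prostaglandin synthase, had -11.71, and it was listed at 0 in endothelium and averaged 3.6 ± 1.83 FPKM in stroma in vivo and averaged 774 ± 31.5 FPKM in endothelium alone and was listed at 0 in stroma alone. Cytl1, a secreted protein of cartilage, had -11.63, and it averaged 13.2 ± 5.61 FPKM in endothelium and 883 ± 86.97 FPKM in stroma in vivo and averaged 47.8 ± 5.57 FPKM in endothelium alone and was listed at 0 in stroma alone. Thsd4 had -11.61 and averaged 68.5 ± 3.86 FPKM in endothelium alone and 0.06 ± 0.104 FPKM in stroma alone. The collagen gene Col22a1 had -11.43 and averaged 19.8 ± 3.204 FPKM in endothelium alone and was listed at 0 in stroma alone. For all 6 genes the difference was negative in vivo and positive alone.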

How the results depend on the processing

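The counts of 1732 genes higher and 2334 lower stayed within 1.5 times under every alternative but the removal of the 2-fold minimum, which gave 5615 higher and 5024 lower by construction and raised the pairs with a higher ligand and a lower receptor to 5. Leaving out each library gave 1656 to 1692 higher, 2205 to 2287 lower, 7430 to 7713 genes with like levels, and 10 and 3 pairs in every case. With the replicate block 1740 genes were higher, of which 1698 were also called without it, and 2303 were lower, of which 2265 were also called; the block left the pairs at 10 and 3. The median of all genes was -0.03 with trimmed-mean scaling and 0.06 with quantile normalization, and the share of calls that were higher was 40.6% and 47.9% under them, against 42.6%.

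With the first culture in place of the alone culture, 803 genes were positive, of which 609 were also called against the alone culture, and 960 were negative, of which 798 were also called. The cause was not tested. Without the 2-fold minimum 6017 were positive and 5266 negative. Leaving out each library gave 2039 to 2131 positive and 2252 to 2349 negative, and with the replicate block they were 2118 and 2338. Over 353 named genes and all alternatives, no called difference changed sign. Lost were 106 calls, and 69 were gained, 48 of them by removing the 2-fold minimum. In 5104 comparisons the gene stayed called or stayed uncalled, and the sign of uncalled differences was not checked. The fit of 12 libraries lost 46 of the 106 calls and the fit of all 24 lost 24. Depth is unknown, so no limit of detection can be given for genes listed at 0.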

Other observations

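The groups described here were chosen after their values were seen, and no test was made of them as groups. Of 20 complement genes 17 were tested, of which 11 were lower and 2 higher in endothelium, where 16.3% and 12.1% of all tested genes were. The central component C3 stood at 3.96, 6.01 and 10.2 FPKM in endothelium, against 817, 663 and 620.3 FPKM in stroma, and the inhibitor Serping1 stood at 50.6, 61.1 and 105 FPKM in endothelium, against 7985, 6607 and 7348 FPKM in stroma. Factor D, encoded by Cfd, was higher and stood at 312, 232 and 231 FPKM in endothelium, against 1.33, 1.43 and 0 FPKM in stroma, and the surface inhibitor Cd55 was higher and averaged 397 ± 61.1 FPKM in endothelium and 44.1 ± 3.59 FPKM in stroma. C4a and C4b are near copies that may share reads.

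Of 8 Gimap genes, small GTPases best known in lymphocytes, 7 were tested and 6 were higher in endothelium, where 12.1% of all tested genes were. Gimap4 stood at 1009, 1085 and 1324 FPKM in endothelium, against 0.93, 0 and 1.03 FPKM in stroma, and Gimap6 stood at 1346, 1353 and 1452 FPKM in endothelium, against 18.9, 33.5 and 26.5 FPKM in stroma. Gimap3 averaged 2.95 ± 0.526 FPKM in endothelium and 0.467 ± 0.442 FPKM in stroma and was not called.

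The kininogen genes Kng1 and Kng2 and 5 genes of the Serpina1 group, known as products of liver, were all lower in endothelium. Kng1 stood at 2.35, 2.72 and 5.98 FPKM in endothelium, against 702, 575 and 647 FPKM in stroma, and Serpina1d stood at 0.68, 3.03 and 1.43 FPKM in endothelium, against 342, 235 and 436 FPKM in stroma. The 2 kininogen genes and the Serpina1 genes are near copies within their groups.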
